A study of Mus musculus with 7 samples.

Results

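The KEAP1-NRF2 regulatory loop was followed through 10 genes chosen by symbol out of 46603 gene rows: Nfe2l2 and Pax8, whose human counterparts name the PAX8-NFE2L2 fusion, and the partners Keap1, Sqstm1, Cul3, Rbx1, Bach1, Mafg, Mafk and Maff. All 10 were found, and all 10 were among the 16731 genes expressed highly enough to be tested, Pax8 only through the fusion libraries. The libraries came from TRAMP-C1, a prostate tumour line established from a mouse of the C57BL/6-TgN(TRAMP)8247Ng strain, in which the probasin promoter drives SV40 T antigens in prostate epithelium. Cells received lentivirus carrying the fusion (3 libraries) or the matching empty vector (3 libraries) for 12 h and then fresh medium for 24 h. A library named WT, 1 in all, is the same line with no construct in its label, and whether it met virus was not stated. The TRAMP transgene background is common to all 7 libraries, and the line is a single tumour line.

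NRF2, the protein of Nfe2l2, is a CNC-type leucine zipper transcription factor that switches on antioxidant and detoxification genes. In unstressed cells KEAP1 holds NRF2 and presents it to a ubiquitin ligase built on the scaffold CUL3 and the RING protein RBX1, which marks it for the proteasome. The autophagy receptor p62, made from Sqstm1, can bind KEAP1 in place of NRF2, and BACH1 represses many of the sites that NRF2 activates. Both NRF2 and BACH1 bind DNA together with a small MAF protein, MAFG, MAFK or MAFF, at antioxidant response elements. Several of these partners are known NRF2 targets themselves, which is what makes the pathway a loop.

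Reads assigned to genes numbered between 26368182 and 59597170 per library, lowest in fusion replicate 3, and 0 reads of a gene allow at most 0.0503 to 0.114 CPM, depending on the library (CPM are counts scaled to one library size with TMM factors; counting error only). Replicates 1 and 2 and the WT library were sequenced in lanes 5 and 6, empty vector replicate 3 in lane 1 and fusion replicate 3 in lane 2, and both libraries numbered 3 had the largest share of reads with several alignments (44.78 and 45.32% against 36.1 to 38.89% elsewhere). The label calls the cells prostate epithelial. Of 10 luminal epithelial markers 5 exceeded 1 CPM in any library: Krt8 lay at 0.521 to 1.9 CPM, and Epcam stayed at or under 0.53 CPM. All 8 mesenchymal markers exceeded 1 CPM, with a summed level of 12600 to 18300 CPM with empty vector, 9890 to 15300 with the fusion and 19100 in the WT library. Of the immune markers only Cd68 exceeded 1 CPM (0.962 to 3.33), and no endothelial marker did. With the fusion 2 of 6 tested luminal markers rose in the fit without a replicate block, against 1.69% of all tested genes. They were Krt18, from 0.418, 0.627 and 1.44 to 8.06, 5.47 and 4.23 CPM, and Foxa1, from 0 in each empty vector library to 2.13, 2.09 and 0.411 CPM. Foxa1 passed the filter on low counts only through the fusion libraries, so its direction was fixed once it was tested. The count of 2 of 6 therefore cannot be weighed against the share of all genes. No marker of the other lists passed in that fit. Of the 8 mesenchymal markers Col3a1 alone did not overlap between the groups, at 4330, 4650 and 3900 CPM with empty vector and 1740, 2660 and 2760 with the fusion. Over all tested genes 6.65% were lower without overlap. The part of these markers in the results on the loop was not tested.

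With the fusion, 4 partner genes lay higher in every library than in any empty vector library: Keap1, Sqstm1, Bach1 and Mafg, by 1.37 to 1.76-fold. The ligase genes Cul3 and Rbx1 and the other small MAF genes Mafk and Maff had ranges that overlapped between the groups, as did Nfe2l2. Counting Pax8, 5 of the 10 genes did not overlap and were higher, against 9.15% of all tested genes, and none was lower, against 6.65%. Pax8 is a construct gene and passed the filter on low counts only through the fusion libraries, where it is high. Its place in this count, and in every count of called genes below, is therefore a check of the labels and no result on the loop. The primary test was edgeR's quasi-likelihood test with Benjamini-Hochberg adjustment at 0.05 over all 16731 genes. It called Pax8 alone, 1 of 10 against 1.69% of all tested genes called higher, and 0 lower against 0.353%. At an unadjusted p under 0.05 it gave 5 of the 10 higher and 0 lower, against 1824 of all 16731 genes in either direction. Libraries with the same replicate number deviated together, and with the number as a block the same test called 5 of 10 higher (Pax8, Keap1, Sqstm1, Bach1 and Mafg), against 7.63% of all tested genes, and 0 lower, against 5.5%. DESeq2 called 4 higher (the same without Mafg), against 3.72%, and 0 lower, against 1.79%. The labels do not tell whether replicates were separate cultures, and the p-values reflect the spread of these libraries alone, which may be technical.

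**Figure D1:**
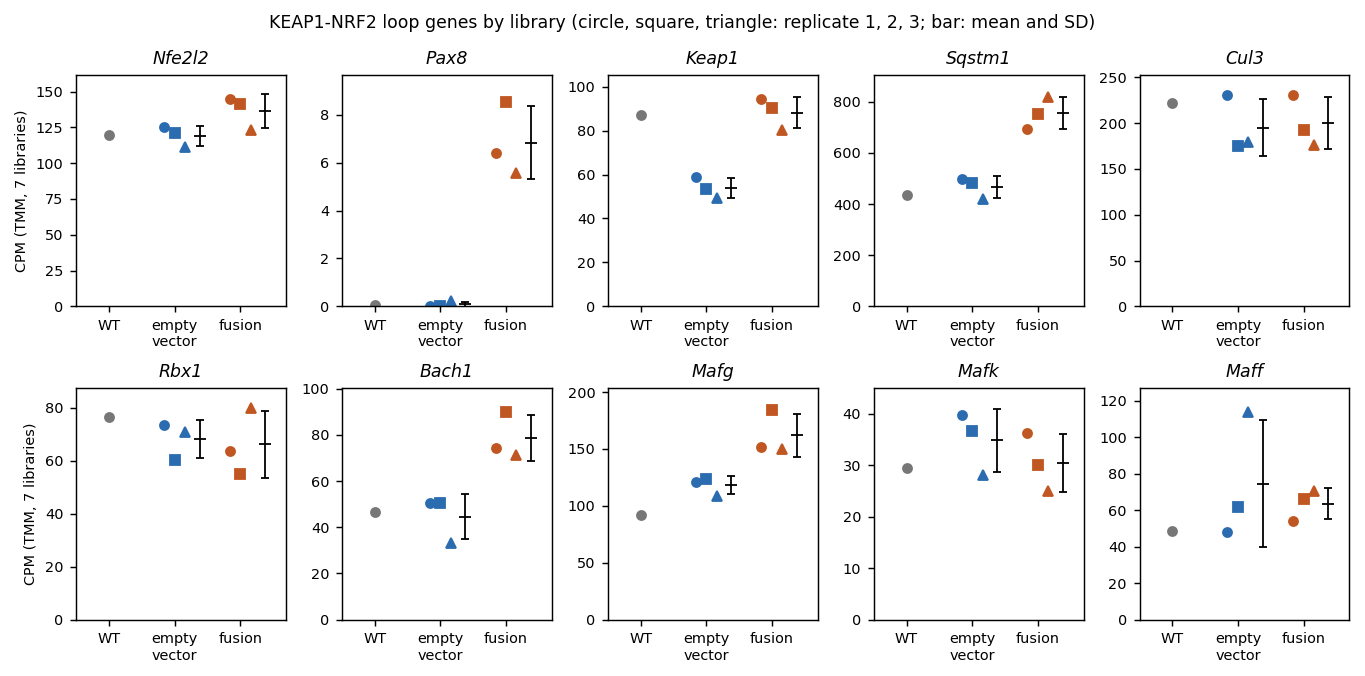
Level of each of the 10 genes in CPM (linear axis from 0, TMM-scaled over 7 libraries) in the WT, empty vector and fusion libraries; each point is 1 library, its shape gives the replicate number, and the black bar gives the mean and SD of 3 libraries. Pax8, Keap1, Sqstm1, Bach1 and Mafg show fusion points above all empty vector points, while the WT point of Keap1 (87 CPM) lies among the fusion points.

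The promoters of the 4 partner genes that passed with the block are shown first, because they can be read for the NRF2 binding motif. The sequences are RefSeq's, GRCm38.p6, from the 250 bases before the start site, printed 5′ to 3′ on the gene's strand. Each is the stretch nearest the start site without bases that GENCODE M21 places in an exon of the gene or of a protein-coding neighbour. For Sqstm1 it ends at an exon of Mgat4b (chr11:50210890-50211030), and bases of the window beyond that exon are not shown. Capitals mark matches on either strand to TGACNNNGC, the core of the antioxidant response element.
Keap1 (chr9:21239362-21239582, minus strand): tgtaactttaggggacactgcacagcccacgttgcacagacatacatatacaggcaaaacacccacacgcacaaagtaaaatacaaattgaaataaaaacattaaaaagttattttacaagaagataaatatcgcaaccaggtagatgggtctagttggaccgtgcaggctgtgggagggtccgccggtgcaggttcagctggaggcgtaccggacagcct
Sqstm1 (chr11:50210828-50210889, minus strand): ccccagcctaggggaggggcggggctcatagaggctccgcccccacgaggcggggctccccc
Bach1 (chr16:87698704-87698944, plus strand): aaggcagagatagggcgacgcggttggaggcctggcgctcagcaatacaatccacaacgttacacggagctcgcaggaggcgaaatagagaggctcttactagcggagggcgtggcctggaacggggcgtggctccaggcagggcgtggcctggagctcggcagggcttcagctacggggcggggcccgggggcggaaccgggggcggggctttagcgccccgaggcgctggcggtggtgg
Mafg (chr11:120633601-120633797, minus strand): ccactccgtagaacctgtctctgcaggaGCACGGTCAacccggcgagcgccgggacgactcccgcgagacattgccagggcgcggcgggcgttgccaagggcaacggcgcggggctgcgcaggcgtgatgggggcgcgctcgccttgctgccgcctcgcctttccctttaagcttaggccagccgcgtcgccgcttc

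Over RefSeq's full windows of 300 bases, which run 50 bases past the start site, the core was found in 4 of the 10 genes, Nfe2l2, Mafg, Mafk and Maff. It was in 12.4% of all 32851 promoter windows, which belong to 27025 genes. That share is of windows and not of genes, and Maff has 3 windows, of which only the first holds the core. The core is thus in 1 of the 4 partners that rose with the block, and also in Mafk and Maff, which did not pass. The 4 matches are set out below on the strand of the match with 10 bases on each side, the core in capitals, so that the 3 free bases can be compared.
Nfe2l2 (chr2:75704885-75704913, minus strand): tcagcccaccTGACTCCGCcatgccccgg
Mafg (chr11:120633751-120633779, plus strand): ctcgccgggtTGACCGTGCtcctgcagag
Mafk (chr5:139791513-139791541, minus strand): tccccagtacTGACACCGCttccgggatc
Maff (chr15:79346499-79346527, plus strand): gggcgtctcaTGACTCTGCcactggaaag
The wider pattern TGANNNNGC, which contains the core, was also in the Keap1 window (TGAACCTGC, 61 to 53 bases before the start site and shown in lower case above on the opposite strand), and it occurs in 41.3% of all windows. Matches are letters in these windows only and not measured binding.

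The construct genes were read in every library as a check of the labels. Pax8, a paired box transcription factor of thyroid and kidney (chromosome 2:24420560-24475599, GRCm38), had 2 reads in the WT library, 2, 2 and 9 reads in empty vector replicates 1, 2 and 3, and 336, 466 and 149 reads in fusion replicates 1, 2 and 3. All 3 fusion libraries stood far above the rest. The pooled reads were 85.9-fold higher than with empty vector (95% exact binomial interval 50 to 162, counting error only), with a fitted log2 change of 6.25 (SE 0.65, edgeR adjusted p = 0.0033). Without empty vector replicate 3, which held 9 of the 13 empty vector reads, the fitted change was 7.53 (adjusted p = 0.0019). Against the WT library, which had 2 reads, the pooled ratio was 177 with an interval of 48.9 to 1470. The noncoding gene Gm13415 shares 367 exon bases with Pax8 on the other strand and had 38, 4 and 11 reads with empty vector and 63, 75 and 28 with the fusion. Without a known strand setting, reads of such shared bases cannot be told apart.

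Nfe2l2 (chromosome 2:75675513-75704641) had levels of 125, 121 and 111 CPM across empty vector replicates 1, 2 and 3, at 145, 141 and 123 CPM in the fusion replicates and at 120 CPM in the WT library. Fusion replicate 3 fell within the empty vector range, and each fusion library was above the empty vector library of its number, by 0.14 to 0.22 on the log2 scale. Its change of 0.19 did not pass (95% interval -0.21 to 0.6, edgeR adjusted p = 0.89). With the block the interval was 0.02 to 0.36 and the adjusted p 0.14. Per kilobase of exon, Pax8 reached 1.13 ± 0.252 CPM with the fusion (SD, n = 3) and Nfe2l2 35.9 ± 3.13 CPM. Counts per gene hold construct and endogenous reads together. The species and the exons of the construct were not stated, so these 2 levels cannot be read as the level of the fusion.

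Keap1, the inhibitor that captures NRF2 (chromosome 9:21229730-21239361), had levels of 58.7, 53.5 and 49.3 CPM across empty vector replicates 1, 2 and 3 and at 94.2, 90.2 and 80.3 CPM in fusion replicates 1, 2 and 3. The WT library held 87 CPM, within the fusion range. The groups did not overlap, and the order of the numbers was the same in both. The fusion libraries exceeded the empty vector libraries of their number by 0.68, 0.75 and 0.7 on the log2 scale, the narrowest spread of the 4 partners. Its log2 fold change was 0.71 (SE 0.18, 1.64-fold, interval 0.29 to 1.13). It did not pass without the block (edgeR adjusted p = 0.12) and passed with it (SE 0.08, adjusted p = 0.0034). The antisense gene Gm16754 shares 510 exon bases with Keap1 on the other strand, with 62 to 163 reads in a library against 2047 to 4942 for Keap1.

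Sqstm1, the gene of p62 (chromosome 11:50199366-50210827), was the most abundant of the 10. It lay at 499, 482 and 420 CPM with empty vector and at 695, 752 and 819 CPM with the fusion, against 434 CPM in the WT library. The lowest fusion library was above the highest empty vector library, and here the order of the numbers was opposite between the groups. Differences within numbers 1, 2 and 3 were 0.48, 0.64 and 0.96 on the log2 scale. For Sqstm1 the log2 fold change of 0.69 (SE 0.19, 1.62-fold, interval 0.26 to 1.13) missed the threshold without the block (edgeR adjusted p = 0.15) and passed with it (adjusted p = 0.012). Mrnip shares 580 exon bases with Sqstm1 on the other strand and had 88 to 194 reads in a library, against 17466 to 41056 for Sqstm1.

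The ligase subunits stood apart from their substrate adaptor Keap1 in that their groups overlapped. Cul3, the cullin scaffold (chromosome 1:80264923-80340480), lay at 231, 175 and 179 CPM with empty vector, at 231, 193 and 176 CPM with the fusion and at 222 CPM in the WT library. Both libraries numbered 1 were the highest of their group. Its log2 fold change was 0.04 (interval -0.44 to 0.51, edgeR adjusted p = 0.99), and -0.15 to 0.22 was the interval with the block. Rbx1, the RING subunit that recruits the E2 enzyme (chromosome 15:81466296-81476369), lay at 73.6, 60.2 and 70.7 CPM with empty vector, at 63.8, 55 and 79.7 CPM with the fusion and at 76.6 CPM in the WT library. The fusion libraries spanned a wider range than the empty vector libraries on both sides. Its value of -0.04 on the log2 scale did not pass (interval -0.52 to 0.44, edgeR adjusted p = 0.99; -0.29 to 0.18 with the block). Without fusion replicate 2 its sign turned to 0.07, and that of Cul3 to -0.08 without fusion replicate 1.

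Bach1, the repressor that competes with NRF2 for small MAF partners and sites (chromosome 16:87698945-87733346), lay at 50.3, 50.3 and 33.3 CPM with empty vector and at 74.5, 90.1 and 71.4 CPM with the fusion. The WT library held 46.8 CPM, inside the empty vector range. Every fusion library was above every empty vector library, with differences of 0.57, 0.84 and 1.1 on the log2 scale within numbers 1, 2 and 3, the largest within number 3, where the empty vector library was low. A log2 fold change of 0.82 was the largest among the 8 partners (SE 0.23, 1.76-fold, interval 0.29 to 1.34). It did not pass without the block (edgeR adjusted p = 0.16) and passed with it (0.83, adjusted p = 0.008). No annotated gene overlaps the exons of Bach1.

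Of the 3 small MAF genes Mafg passed with the block, and Mafk and Maff did not pass with or without it. Small MAF proteins have a leucine zipper and no activation domain of their own, and serve as DNA-binding partners for both NRF2 and BACH1. Mafg (chromosome 11:120625117-120633600) lay at 121, 124 and 109 CPM with empty vector, at 152, 184 and 150 CPM with the fusion and at 92.2 CPM in the WT library, which was below all others. Its log2 fold change was 0.45 (SE 0.18, 1.37-fold, interval 0.03 to 0.87). It missed the threshold without the block (edgeR adjusted p = 0.4) and passed with it (adjusted p = 0.018). Mafg shares 124 exon bases with Sirt7 on the same strand, and reads there are ambiguous to a gene counter. Mafk (chromosome 5:139791513-139802653) lay at 39.7, 36.7 and 28 CPM with empty vector, at 36.3, 30.1 and 25 CPM with the fusion and at 29.4 CPM in the WT library. Each fusion library was slightly under the empty vector library of its number, yet the groups overlapped. Its change of -0.19 did not pass (interval -0.71 to 0.33, edgeR adjusted p = 0.93; 0.2 with the block).

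Maff (chromosome 15:79346621-79359076) had the widest spread of the partners. Empty vector replicates 1, 2 and 3 held 48.1, 61.9 and 114 CPM, the fusion replicates 54.1, 66 and 70.8 CPM and the WT library 48.6 CPM. Empty vector replicate 3 was far above all other libraries. The log2 fold change of -0.23 did not pass (interval -0.98 to 0.51, edgeR adjusted p = 0.96) and turned to 0.21 without that library. The summed level of the 3 small MAF genes was 209, 223 and 252 CPM with empty vector and 243, 280 and 246 CPM with the fusion, against 170 CPM in the WT library, and the groups overlapped. Per kilobase, Mafg made up 43, 40 and 27.5% of the small MAF level in empty vector replicates 1, 2 and 3 and 47.4, 49.7 and 44.2% in the fusion replicates, so its share was higher in every fusion library. The low empty vector value of 27.5% is that of the library with high Maff. Whether Mafg changed differently from Mafk or Maff was not tested.

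**Figure D2:**
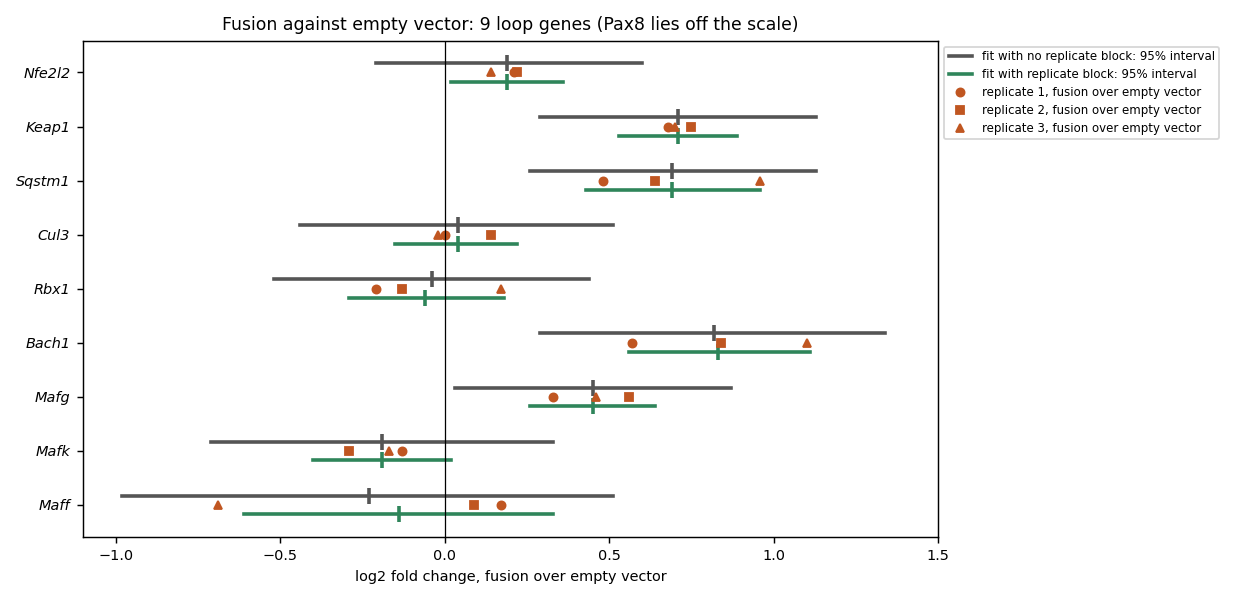
Log2 fold change of fusion over empty vector for 9 genes; points are the differences within replicate numbers 1, 2 and 3, and lines are 95% intervals from edgeR without (grey) and with (green) a replicate block. The intervals of Keap1, Sqstm1, Bach1 and Mafg lie above 0 in both fits, and those of Cul3, Rbx1, Mafk and Maff include 0 in both.

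The blocked calls of the 4 partners ended without the libraries numbered 2, as did most blocked calls over all tested genes. Without the libraries numbered 3 or 1 the blocked edgeR fit again called 5 of the 10 genes. All genes called higher then numbered 1873 and 808, and lower 1402 and 677. Without number 2 it called Pax8 alone, with edgeR adjusted p = 0.063 for Keap1, 0.092 for Bach1, 0.1 for Sqstm1 and 0.19 for Mafg. That fit called 253 of all tested genes higher and 103 lower, against 1276 and 920 with all 6 libraries. Fold changes on the log2 scale in these 3 fits lay between 0.67 and 0.73 for Keap1, 0.58 and 0.76 for Sqstm1, 0.72 and 0.92 for Bach1, and 0.37 and 0.46 for Mafg.

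Ratios of reads within a library do not depend on library scaling, and they show how the partners stood to each other. Nfe2l2 had 2.13, 2.27 and 2.26 reads per Keap1 read in empty vector replicates 1, 2 and 3 and 1.54, 1.57 and 1.53 in the fusion replicates. The fusion libraries were thus tightly grouped below the empty vector libraries, and the WT library was lower still at 1.38. Bach1 had 0.402, 0.415 and 0.3 reads per Nfe2l2 read with empty vector and 0.515, 0.638 and 0.583 with the fusion. The WT library, at 0.39, lay in the empty vector range. Sqstm1 had 8.49, 8.99 and 8.53 reads per Keap1 read with empty vector and 7.38, 8.33 and 10.2 with the fusion, so the groups overlapped, while the WT library held 4.99. These ratios are descriptions and were not tested.

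**Figure D3:**
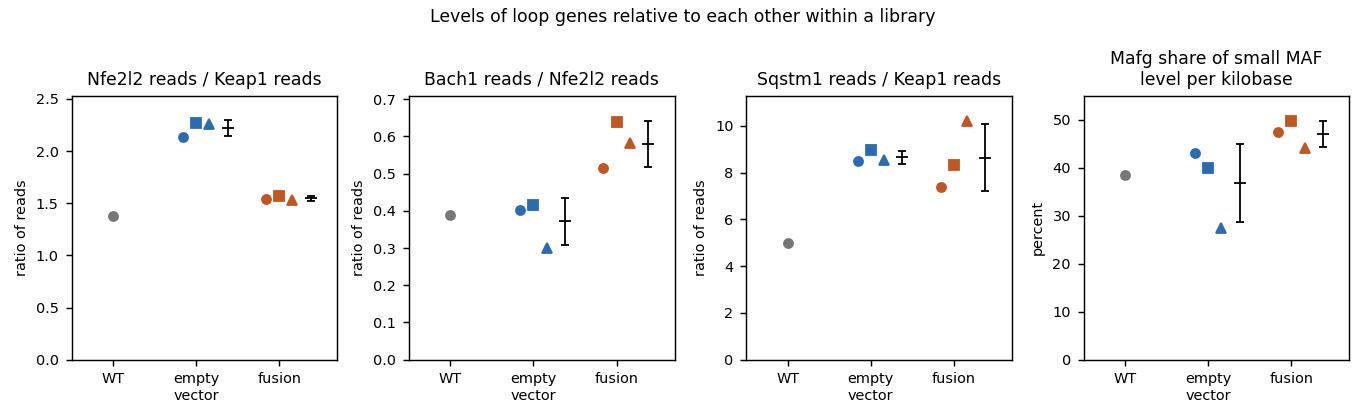
Read ratios within each library (3 panels, linear axes from 0) and the share of Mafg in the small MAF level per kilobase (percent), for WT, empty vector and fusion libraries; point shapes give the replicate number and black bars the mean and SD of 3 libraries. The Nfe2l2 to Keap1 ratio is 1.53 to 1.57 with the fusion and 2.13 to 2.27 with empty vector, and the Sqstm1 to Keap1 ratio overlaps.

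Compared per kilobase of annotated exon, Sqstm1 led with empty vector at 139 ± 12.3 CPM per kilobase (SD, n = 3), followed by Cul3 (40 ± 6.45), Nfe2l2 (31.4 ± 1.88), Maff (28.8 ± 13.5), Mafg (21.1 ± 1.44) and Rbx1 (15 ± 1.55). Keap1 (11.5 ± 1.01), Mafk (8.92 ± 1.55), Bach1 (7.22 ± 1.58) and Pax8 (0.0157 ± 0.0173) came last. The ranges of Nfe2l2 and Maff, of Maff and Mafg, and of Mafk and Bach1 overlapped, while the other neighbours in this order did not. With the fusion Keap1 (18.8 ± 1.52 CPM per kilobase) ranked above Rbx1 (14.5 ± 2.75), with overlapping ranges, and Bach1 (12.7 ± 1.62) above Mafk (7.81 ± 1.45), with ranges apart. Exon lengths are those of GENCODE M21 and count all annotated transcripts, so the order between genes depends on which transcripts the cells use.

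The WT library allowed a look at the loop without a named vector, with no replicate of its own and assumed in the test to vary like the other groups. For empty vector against WT, which shares its empty vector libraries with the primary comparison, edgeR called 0 of the 10 genes and 0% of all tested genes. At an unadjusted p under 0.05 it gave 1 of the 10, Keap1, and 746 of all genes, and DESeq2 called 0 of the 10, against 0.263% of all genes higher and 0.197% lower (0.46% in all). With the block edgeR again called 0 of the 10, against 0.0359% of all genes higher and 0.0837% lower. Unadjusted, it gave 2 higher and 1 lower, against 3377 of all genes in either direction. The block placed the WT library with the libraries numbered 1 by its label alone, a pairing that was not checked. Keap1 had the largest difference of the partners, with a log2 fold change of -0.69 (interval -1.26 to -0.12, edgeR adjusted p = 0.95; -0.58 and 0.082 with the block). Empty vector libraries held 49.3 to 58.7 CPM of it against 87 CPM. For Nfe2l2 the log2 fold change was -0.01, with an interval of -0.58 to 0.56.

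For fusion against WT, which shares the fusion libraries with the primary comparison, edgeR called 0 of the 10 genes and 0.341% of all genes higher and 0.0956% lower. It gave 3 of the 10 at an unadjusted p under 0.05, against 1284 of all genes in either direction. DESeq2 called 1 higher, Pax8, against 2.19%, and 0 lower, against 0.789% (2.98% in all). With the block, which has the same unchecked placing of WT, edgeR called 4 higher, Pax8, Sqstm1, Bach1 and Mafg, against 4.57% of all genes. It called 0 lower, against 5.25% (9.82% in all). Sqstm1 had a log2 fold change of 0.8 (interval 0.16 to 1.44), Mafg of 0.81 (0.19 to 1.44) and Bach1 of 0.75 (-0.02 to 1.52). Keap1 had 0.02, with an interval of -0.57 to 0.61. For Keap1 the fusion libraries held 80.3 to 94.2 CPM, on both sides of the WT value of 87 CPM, whereas the WT values of Sqstm1, Bach1 and Mafg lay below all fusion libraries. With 1 WT library, a difference between that library and the line cannot be told apart from one between WT and vector.

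Genes that work beside the loop were read from 7 lists. In the machinery around the CUL3 ligase, with its NEDD8 conjugation enzymes and COP9 signalosome subunits, 0 of 14 genes passed (0 at an unadjusted p under 0.05, 0 by DESeq2), with a median log2 fold change of 0 against 0.01 over all tested genes. With the block 1 fell, Uba3, a subunit of the NEDD8-activating enzyme (303, 347 and 488 CPM with empty vector, 232, 251 and 382 with the fusion, log2 fold change -0.4, edgeR adjusted p = 0.02), against 5.5% of all tested genes called lower. That call ended without the libraries numbered 1 or 2 (adjusted p = 0.054 and 0.17 with the block). Of 11 genes of other routes that degrade NRF2, through beta-TrCP, GSK3, HRD1 and DDB1-CUL4, 0 passed (0 unadjusted, 0 by DESeq2, median 0.13). With the block 2 rose: Skp1a, the adaptor of the SCF ligase (225 ± 35.3 to 298 ± 45.2 CPM, 0.41, adjusted p = 0.021), and Dcaf11, a CUL4 substrate receptor (26.3 ± 2.31 to 34.9 ± 2.46 CPM, 0.41, adjusted p = 0.028), against 7.63% of all tested genes called higher. Both calls ended without the libraries numbered 1 or 2, with adjusted p = 0.068 and 0.21 for Skp1a and 0.15 and 0.24 for Dcaf11.

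Relatives of NRF2 and BACH1 did not pass with or without the block when all 6 libraries were used. Of 4 listed CNC and BACH factors 3 were tested, and 0 were called (0 unadjusted, 0 by DESeq2, median -0.67). With the block 2 were lower at an unadjusted p under 0.05, against 4991 of all tested genes in either direction. Nfe2l1, which drives proteasome genes, lay at 470, 645 and 424 CPM with empty vector and at 368, 509 and 377 CPM with the fusion. Its log2 fold change was -0.3 (edgeR adjusted p = 0.85, and 0.065 with the block). Without the libraries numbered 3 it passed with the block (-0.33, edgeR adjusted p = 0.032). Bach2, a repressor best known in lymphocytes, lay at 5.93 ± 2.04 and 3.69 ± 2.46 CPM (-0.67, adjusted p = 0.81). Maf, a large MAF factor with an activation domain, lay at 93.7 ± 30.2 and 116 ± 46.1 CPM and did not pass (0.31, adjusted p = 0.92; -0.07 without fusion replicate 2).

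Among 9 genes of proteins that bind KEAP1 or modulate its hold on NRF2, 0 passed (0 by DESeq2, median -0.09). At an unadjusted p under 0.05 1 was lower, against 1824 of all tested genes in either direction. With the block 1 rose, against 7.63% of all tested genes, and 2 fell, against 5.5%. Dpp3, a peptidase that occupies the NRF2 site of KEAP1, rose from 94.1 ± 8.27 to 120 ± 5.14 CPM (0.35, edgeR adjusted p = 0.03). Sesn2, a stress-induced sestrin that promotes p62-dependent removal of KEAP1, went from 47.6, 50.9 and 38.3 CPM to 26.8, 34.7 and 20 CPM (-0.77, adjusted p = 0.0075). Its WT value of 28 CPM lay in the fusion range. Amer1, also known as WTX, fell from 29.9 ± 13.4 to 21.1 ± 10.2 CPM (-0.51, adjusted p = 0.019). Without the libraries numbered 1 or 2 the blocked call held for Sesn2 (adjusted p = 0.014 and 0.047) and ended for Dpp3 (0.11 and 0.26) and Amer1 (0.067 and 0.15). Amer1 ranged from -0.9 without fusion replicate 2 to -0.14 without empty vector replicate 2 in the fit without the block. Of 8 coactivators and corepressors of NRF2 0 passed, with the block too (0 unadjusted, 0 by DESeq2, median 0.05). Unadjusted, the block gave 2 higher and 1 lower, against 4991 of all tested genes in either direction.

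Of 17 partners of p62 in selective autophagy 0 passed (0 by DESeq2, median 0.14). At an unadjusted p under 0.05 1 was higher, against 1824 of all tested genes in either direction. With the block 3 rose and 0 fell. They were Gabarapl1, an ATG8-family protein (121, 147 and 119 CPM with empty vector, 154, 216 and 204 with the fusion, 0.56, edgeR adjusted p = 0.018), Map1lc3b, the gene of LC3B (58.5 ± 6.61 to 78.5 ± 7.95 CPM, 0.43, adjusted p = 0.025), and Ulk1, an autophagy-initiating kinase (27.9 ± 10.2 to 40.6 ± 9.22 CPM, 0.59, adjusted p = 0.045). All 3 calls ended without the libraries numbered 2 (adjusted p = 0.15, 0.21 and 0.25 in that order), and that of Map1lc3b also without those numbered 1 (0.054). Nbr1, a receptor related to p62, was chosen here after its values were seen: it lay at 227 ± 24.1 and 227 ± 36.2 CPM, with a log2 fold change of 0. The share called with the block over all tested genes was 7.63% higher, and 3 of 17 is set against that.

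**Figure D4:**
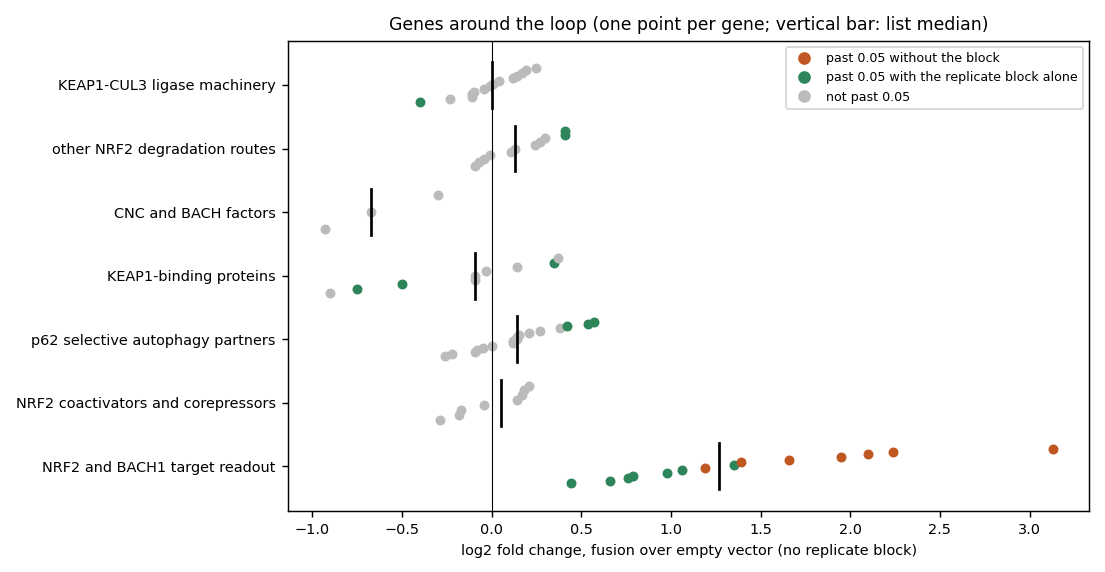
Log2 fold change of fusion over empty vector, without a replicate block, for each tested gene of the 7 lists; orange points passed without the block, green points only with it, and vertical bars are list medians. Medians of the ligase, degradation, KEAP1-binding, p62 and coactivator lists lie between -0.09 and 0.14, and that of the target list at 1.27.

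The output of the loop was read from 14 target genes of NRF2 and BACH1, a list that these data had already shown to be high with the fusion and that is no independent evidence. Of these 7 rose without the block, against 1.69% of all tested genes, and 14 with it, against 7.63%, and 0 fell, with a median log2 fold change of 1.27. Unadjusted and without the block, 13 were higher and 0 lower, against 1824 of all tested genes in either direction. DESeq2 called 11 higher and 0 lower. Hmox1, heme oxygenase and the textbook BACH1-repressed gene, lay at 156, 161 and 123 CPM with empty vector, 260, 383 and 272 with the fusion and 108 in the WT library. The fusion libraries were above all others, and the change of 1.06 missed the threshold without the block (edgeR adjusted p = 0.065; 0.004 with it). Nqo1, a quinone reductase, rose by 2.24 (adjusted p = 0.0052), Osgin1 by 3.13 (0.0012), Gclm by 2.1 (0.0081), Srxn1 by 1.95 (0.0026), Gclc by 1.66 (0.016), Slc7a11 by 1.39 (0.037) and Ftl1 by 1.19 (0.025). Leaving out 1 library kept the calls of Osgin1, Srxn1, Nqo1 and Gclm in 6 of 6 fits, that of Gclc in 4, of Ftl1 in 1 and of Slc7a11 in 0 (highest adjusted p 0.15, without empty vector replicate 2). The calls of Gclc ended without empty vector replicate 2 or fusion replicate 1 (0.087 and 0.053), and that of Ftl1 in every such fit but the one without fusion replicate 3. With the block, the calls of Nqo1 and Gclc ended without the libraries numbered 2 (edgeR adjusted p = 0.07 and 0.056), and the others named here held. Without the block, those of Gclm, Gclc and Slc7a11 ended without the libraries numbered 3 (edgeR adjusted p = 0.053, 0.07 and 0.091).

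Genes whose levels ran most like a partner over the 7 libraries were taken from 10986 genes of at least 5 CPM by Pearson correlation of log2(CPM + 0.5), a description over libraries that share groups and numbers. For Keap1 they were Golm1 (r = 0.978), Gm8181 (0.976) and St3gal2, a sialyltransferase (0.973). Each lay higher in the WT library than in any empty vector library, as Keap1 did: St3gal2 held 295 CPM there, 166 to 222 with empty vector and 274 to 343 with the fusion. For Sqstm1 they were Ppil2 (0.992), Oxsm (0.991) and Gsta4, a glutathione transferase (0.988). For Bach1 they were Kif13b, a kinesin (0.992), Map1lc3b (0.989) and Abcc5, an export pump (0.987). For Mafg they were Mkx, a homeobox factor (0.993), Rogdi (0.991) and E330009J07Rik (0.99). Mkx, like Mafg, was lowest in the WT library, at 5.27 CPM against 8.35 to 15 with empty vector and 29.4 to 49.4 with the fusion. No gene appeared under more than 1 partner. Among the 10 genes themselves the correlation was 0.916 for Sqstm1 with Bach1, 0.892 for Sqstm1 with Mafg and 0.87 for Bach1 with Mafg, and lower for Keap1 with each (0.655, 0.774 and 0.438), whose WT value stands among the fusion values.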

How the data were processed

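Polyadenylated RNA of 7 libraries was sequenced as 50 bp single-end reads, per the labels' protocols. Each deposited table holds whole read counts for the genes of 1 lane, made by the authors with STAR and HTSeq on GRCm38, per the submitters' processing notes. Their versions, annotation release and strandedness were not given in the sources used here. Lanes of a library, 12 tables in all, showed no difference in a chi-square test over genes (p = 0.2 to 0.97) and were summed. Rows naming no gene stayed out of library sizes (no feature 5.726 to 6.927%, ambiguous 1.222 to 1.479%, several alignments 36.1 to 45.32%). Symbols (46005 of 46603 rows), positions and overlaps come from GENCODE M21, promoters from RefSeq GRCm38.p6.

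The tests used edgeR 4.0.16 in R 4.3.3: TMM, filterByExpr with a minimum count of 10, robust dispersions, the quasi-likelihood test and Benjamini-Hochberg adjustment. Fusion against empty vector used 6 libraries, comparisons with WT all 7 over the same genes. DESeq2 1.42.0 was an alternative. The fits were tested on simulated data. CPM use TMM factors of 0.944 to 1.04.

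Deviations from group means correlated between same-numbered libraries (r = 0.659, 0.63 and 0.61 for numbers 1, 2 and 3), so the numbers were taken to pair the samples. This check is the only source of the pairing and did not include the WT library. Blocked fits with WT took its replicate number 1 as pairing it with the other libraries numbered 1. Values with the replicate block are given where they change a call. Named genes are the 10 loop genes, list genes past a test with or without the block (of the targets only those past it without, plus Hmox1), the paralogs Nfe2l1, Bach2 and Maf, and the 3 genes most like each of 4 partners. The members and lists were chosen with earlier results of these data known. Some genes of the lists are not reported here.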

Additional observations from a re-analysis of the deposited data

How the results depend on the processing

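For fusion against empty vector 282 genes were called higher and 59 lower. With the replicate block these became 1276 and 920, and 5 of the 10 loop genes were called in place of 1. With DESeq2 they were 622 and 300, with 4 loop genes. With no filter on low counts 133 genes were lower. Without the libraries numbered 3, 2 or 1 and with the block, 1873, 253 and 808 genes were higher and 1402, 103 and 677 lower, with 5, 1 and 5 loop genes. Leaving out 1 library gave 127 to 298 higher and 12 to 75 lower, and 1 loop gene called (Pax8) in all 6 fits. The lowest counts came without empty vector replicate 2 (127 and 12) and fusion replicate 2 (137 and 17), and 14 were lower without fusion replicate 1.

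For empty vector against WT 0 genes were called. This became 6 higher and 14 lower with the replicate block, 2 and 13 with no filter and 44 and 33 with DESeq2, and 0 to 5 lower when 1 library was left out, the 5 without fusion replicate 3. For fusion against WT 57 were higher and 16 lower: 764 and 879 with the block, 177 and 68 with no filter, 366 and 132 with DESeq2, 1 to 87 and 0 to 31 when 1 library was left out (1 and 0 without fusion replicate 2). Loop genes called there numbered 0, but 4 with the block, 1 with no filter, DESeq2 or without the libraries numbered 3, and 0 to 1 when 1 library was left out.

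Signs turned for genes that passed neither the primary test nor the blocked one in that comparison. For fusion against empty vector Maff was 0.14 and 0.15 without the libraries numbered 3 (without and with the block) and -0.48 to 0.21 when 1 library was left out (0.21 without empty vector replicate 3). Cul3 ranged likewise from -0.08 to 0.17, below 0 without empty vector replicate 2, empty vector replicate 3 or fusion replicate 1, and was -0.03 without number 2 with the block. Rbx1 ranged from -0.2 to 0.07, above 0 without empty vector replicate 1 (0.01) or fusion replicate 2, and Maf from -0.07 (without the latter) to 0.53, although Maf passed with the block without the libraries numbered 1 (0.5, adjusted p = 0.035). For empty vector against WT, Nfe2l2 was 0.07 with the block, 0.02 with no filter, 0.04 without the libraries numbered 3, and -0.02 to 0.04 when 1 library was left out, above 0 without empty vector replicate 3 and without either of fusion replicates 1 and 2. Cul3 was 0.04 with the block. Without the libraries numbered 3 Pax8 was -0.2 and Bach1 0.1; with 1 library left out they ranged from -0.2 to 1.53 and -0.14 to 0.1, turning without empty vector replicate 3. For fusion against WT, Cul3 was 0.08 with the block, while Keap1 ranged from -0.05 to 0.08 and Mafk from -0.12 to 0.17, below 0 without fusion replicate 1. The cause of these shifts was not tested. Alternatives for list genes were added after the data were seen. Reads of 2 in Pax8 limit its folds.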
